A study of Homo sapiens with 6 samples.

Results

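AP-1 is a family of dimeric transcription factors built mainly from FOS and JUN proteins, and EGR1 is a zinc finger factor induced by many of the same growth signals. In MDA-MB-468 cells, a basal-like triple-negative breast cancer line, these genes did not move together after treatment with an antisense oligonucleotide against the long non-coding RNA NRAD1. FOSL1, which encodes the AP-1 subunit FRA-1, was 2.87-fold higher with GapmeR#4 than with control GapmeR, and EGR1 was 1.60-fold lower. Smaller changes were seen for JUN, 1.33-fold higher, and for JUNB, 1.21-fold lower with groups barely parted. FOS, FOSB, FOSL2, JUND and ATF3 had overlapping values in both groups. The genes described are FOS, FOSB, FOSL1, FOSL2, JUN, JUNB, JUND, ATF3 and EGR1, 9 of the 14884 genes that the platform annotation names. They were picked by symbol, with the values of these arrays already known, so the changes of all 9 between GapmeR#4 and control GapmeR are a description and carry no test.

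Cells were transfected for 48 h with 15 nM of GapmeR#4, an antisense oligonucleotide that directs cleavage of NRAD1 (LINC00284), or with 15 nM of a negative control GapmeR. Total RNA of 3 GapmeR#4 and 3 control GapmeR samples was hybridised, each to its own array (Affymetrix Human Gene 2.0 ST). The deposited values are log2 signals of 53617 transcript clusters, the units in which this platform measures a gene, and 12 of them carry the name of a member. The labels call the samples biological replicates without saying how the cultures were kept apart, so p-values measure only the spread between these samples, which may be technical, and the design rests on 1 targeting oligonucleotide in 1 cell line. In bulk RNA, fewer cells expressing a gene and less of its RNA per cell cannot be told apart.

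The 6 arrays had closely similar signals, with medians of 3.96 to 4.01 and upper quartiles of 5.76 to 5.78. NRAD1 itself gave 2.96, 2.99 and 2.90 with GapmeR#4, against 3.43, 3.46 and 4.01 with control GapmeR, a log2 change of -0.69 (standard error, SE, 0.17) that missed the threshold over all transcript clusters (adjusted p = 0.0908 from limma), although every GapmeR#4 array was the lower. The NRAD1 signal was dim, with means of 2.95 for GapmeR#4 and 3.64 for control GapmeR, both below the array medians. Its log2 change was -0.50 without control replicate 3, the highest array. Of 6 measured epithelial markers, out of 10 listed as basal-like, EPCAM, EGFR, KRT18 and KRT5 were above the upper quartile in both groups. The basal keratin KRT14 was below it, with means of 5.45 for GapmeR#4 and 5.55 for control GapmeR. KRT8 was near it, with means of 5.74 for GapmeR#4 and 5.89 for control GapmeR. All 6 log2 changes were negative and none passed limma after adjustment, with EGFR (-0.36, unadjusted p = 0.0109) and KRT5 (-0.32, unadjusted p = 0.0157) lower without overlap. The luminal factor GATA3 was also above the upper quartile, with means of 8.13 for GapmeR#4 and 7.82 for control GapmeR. The hormone receptors had means of 3.85 for GapmeR#4 and 4.11 for control GapmeR (ESR1, near the median) and of 2.51 for GapmeR#4 and 2.61 for control GapmeR (PGR, near the lower quartile). GATA3 was higher and ESR1 and PGR were lower without overlap, and none of these passed limma after adjustment (1 of the 3, GATA3, had an unadjusted p under 0.05). Among markers of other cell types only PECAM1, VWF and CD68 had a named transcript cluster, 3 of 9 listed, and none passed limma after adjustment, although PECAM1 had an unadjusted p of 0.0304. The means of PECAM1 were 3.03 with GapmeR#4 and 3.44 with control GapmeR, below the array medians, as were those of VWF, whereas CD68 was above the upper quartile with means of 6.85 for GapmeR#4 and 6.94 for control GapmeR. The summed log2 signal of PECAM1, VWF and CD68 was 13.30 to 13.73 with GapmeR#4 and 14.00 to 14.51 with control GapmeR. Such a sum is no measure of cell content, and the part of these marker differences in the results was not tested.

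As background, FOS proteins (FOS, FOSB, FRA-1 and FRA-2, the last encoded by FOSL2) must pair with a JUN protein (JUN, JUNB or JUND) through a leucine zipper to bind DNA, while JUN proteins can also pair with each other and with ATF factors. FOS, FOSB, JUN, JUNB, ATF3 and EGR1 are classic immediate early genes, switched on within minutes by mitogens or stress and then silenced, whereas FRA-1 follows with a delay and lacks the strong activation domain of FOS. FRA-1 is known for its high level in basal-like breast cancer cells. Growth and stress kinases act on the promoters of these genes through SRF and ELK factors at CArG boxes, and through ATF and CREB factors at sites related to TGACGTCA.

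Because EGR1 and JUN differed in direction and are each known for control by such sites, the 250 bases upstream of their annotated starts are shown, in RefSeq sequence (GRCh38.p14) read 5′ to 3′ along each gene. Capitals mark CArG boxes and matches of TGACNTCA or TGACG on either strand. The EGR1 stretch is chr5:138465229-138465478 on the plus strand and the JUN stretch is chr1:58784048-58784297 on the minus strand.
EGR1: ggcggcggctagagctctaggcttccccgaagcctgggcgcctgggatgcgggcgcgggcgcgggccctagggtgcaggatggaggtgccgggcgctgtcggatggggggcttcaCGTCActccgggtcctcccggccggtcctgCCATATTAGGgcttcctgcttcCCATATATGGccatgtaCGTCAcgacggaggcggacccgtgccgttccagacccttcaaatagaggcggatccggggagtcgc
JUN: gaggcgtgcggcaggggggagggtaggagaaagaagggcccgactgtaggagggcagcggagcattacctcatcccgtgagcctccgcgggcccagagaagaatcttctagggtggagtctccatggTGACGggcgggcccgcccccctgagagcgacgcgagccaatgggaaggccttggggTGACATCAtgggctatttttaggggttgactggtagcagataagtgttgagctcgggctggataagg
The EGR1 stretch held 2 CArG boxes, beginning at -105 and -83 from the start, and 2 matches of TGACG, at -135 and -66. No other member stretch held a CArG box within these 250 bases, and 1.16% of 35116 upstream stretches of this length did. Bases further upstream were not searched, so a member without a match here may hold one there. The EGR1 stretch was also the only member stretch with GCGNGGGCG, the letters EGR1 itself is known to bind, at -198, which 8.41% of all stretches held. The JUN stretch held TGACATCA at -67 and TGACG at -123.

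The RefSeq table had upstream stretches for 8 of the 9 members, with 2 for ATF3, and FOSL1 is named only. A match of TGACNTCA, which contains TGACG where N is G, was in 3 of these 9 stretches and in 6.87% of all. These sites are printed with the bases around them because JUN and ATF3 shared the same letters in capitals and JUND held the symmetric form. They lie at chr1:58784099-58784122 (minus strand), chr1:212565276-212565299 (plus strand) and chr19:18281807-18281830 (minus strand).
JUN: ccttggggTGACATCAtgggctat
ATF3: ctatgataTGACATCAtatggcca
JUND: cgcccccaTGACGTCAacccacaa
The shorter TGACG was in 7 of the 9 stretches, those of FOS, FOSB, FOSL2, JUN, JUNB, JUND and EGR1, and in 21.2% of all. TGANTCA, the site best known for AP-1, was in 0 of the 9 stretches and in 6.57% of all. A match is a run of letters and not a shown binding site, and genes that held the same letters differed in their values on the arrays.

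FOSL1 had log2 signals of 7.13, 7.39 and 8.07 with GapmeR#4, against 5.97, 6.16 and 5.88 with control GapmeR. Every GapmeR#4 array was above every control array, and the GapmeR#4 arrays were themselves far apart. The SD was 0.49 with GapmeR#4 and 0.14 with control GapmeR (n = 3 each), and 95.2% of all transcript clusters had a smaller SD than FOSL1 within the GapmeR#4 arrays. The log2 change was 1.52 (standard error 0.23), number 8 in size among the increases of the named genes. It was 1.25 without GapmeR#4 replicate 3, the highest array, and 1.72 without GapmeR#4 replicate 1, the lowest of that group. The control mean of 6.01 was already above the upper quartile of all transcript clusters.

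The other FOS genes had no such shift. FOS, the founding subunit, gave 5.13, 4.94 and 5.19 with GapmeR#4, against 5.26, 5.05 and 4.90 with control GapmeR, a log2 change of 0.02 (standard error 0.13). FOSL2, the closest relative of FOSL1, gave 6.76, 6.69 and 6.57 with GapmeR#4, against 6.94, 6.51 and 6.56 with control GapmeR, and its change was below 0.01 in size (standard error 0.14). Arrays of the groups overlapped for both genes, and the sign of both changes depended on which array was left out.

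FOSB, a subunit best known from neurons, is represented by 2 transcript clusters. The brighter (16873329) gave 5.34, 5.22 and 5.56 with GapmeR#4, against 5.20, 5.33 and 4.99 with control GapmeR. The dimmer (16863287) gave 4.78, 4.58 and 4.79 with GapmeR#4, against 4.74, 4.98 and 4.65 with control GapmeR. The log2 changes were 0.20 (standard error 0.14) and -0.07 (standard error 0.13), with overlap in both, so neither gave FOSB a direction. By identifier order the brighter one has mostly minus-strand neighbours, while FOSB lies on the plus strand. Whether the brighter transcript cluster reads FOSB was not tested.

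JUN, the main partner of FOS proteins, gave 6.37, 6.37 and 6.20 with GapmeR#4, against 5.80, 6.04 and 5.84 with control GapmeR. All GapmeR#4 arrays were higher, and the log2 change of 0.42 (standard error 0.11) stayed between 0.37 and 0.49 when any 1 array was left out. JUNB, known to oppose JUN at some promoters, gave 7.43, 7.53 and 7.38 with GapmeR#4, against 8.06, 7.58 and 7.53 with control GapmeR. Its groups were parted only in the third decimal, with GapmeR#4 replicate 2 at 7.525 and control replicate 3 at 7.528, and the log2 change of -0.28 (standard error 0.16) was -0.11 without control replicate 1.

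JUND, the JUN gene that varies least with growth signals, gave 7.55, 7.64 and 7.56 with GapmeR#4, against 7.79, 7.60 and 7.47 with control GapmeR. Its log2 change was -0.04 (standard error 0.11), the groups overlapped, and it was 0.05 without control replicate 1. That control array was the highest of all 6 for FOS, FOSL2, JUNB and JUND, 4 of the 9 members, and for 21.8% of all named genes. Without it the log2 changes were 1.504 for FOSL1, 0.37 for JUN and -0.68 for EGR1, and neither FOSL1 nor EGR1 passed limma after adjustment. That loss was not particular to this array. Neither gene passed without control replicate 2, control replicate 3 or GapmeR#4 replicate 2 either. Without GapmeR#4 replicate 1 or GapmeR#4 replicate 3, FOSL1 passed and EGR1 did not.

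EGR1 ran opposite to FOSL1. Its brighter transcript cluster (16989736) gave 5.43, 5.61 and 5.32 with GapmeR#4, against 6.14, 6.03 and 6.22 with control GapmeR. All GapmeR#4 arrays were lower, with a small spread in both groups (SD 0.15 with GapmeR#4 and 0.09 with control GapmeR, n = 3 each), and the log2 change was -0.68 (standard error 0.12), number 364 in size among the decreases of the named genes. It lay between -0.76 and -0.62 when any 1 array was left out. GapmeR#4 replicate 3 was at the same time the highest array for FOSL1 and the lowest for EGR1. The order of the GapmeR#4 arrays was not mirrored throughout, since FOSL1 was lowest in replicate 1 (7.13) and EGR1 was highest in replicate 2 (5.61).

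ATF3, a stress-induced factor that pairs with JUN proteins, gave 4.57, 4.67 and 5.04 with GapmeR#4, against 4.76, 4.45 and 4.75 with control GapmeR. Its log2 change was 0.11 (standard error 0.16), the groups overlapped, and without GapmeR#4 replicate 3 it was -0.03.

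**Figure D1:**
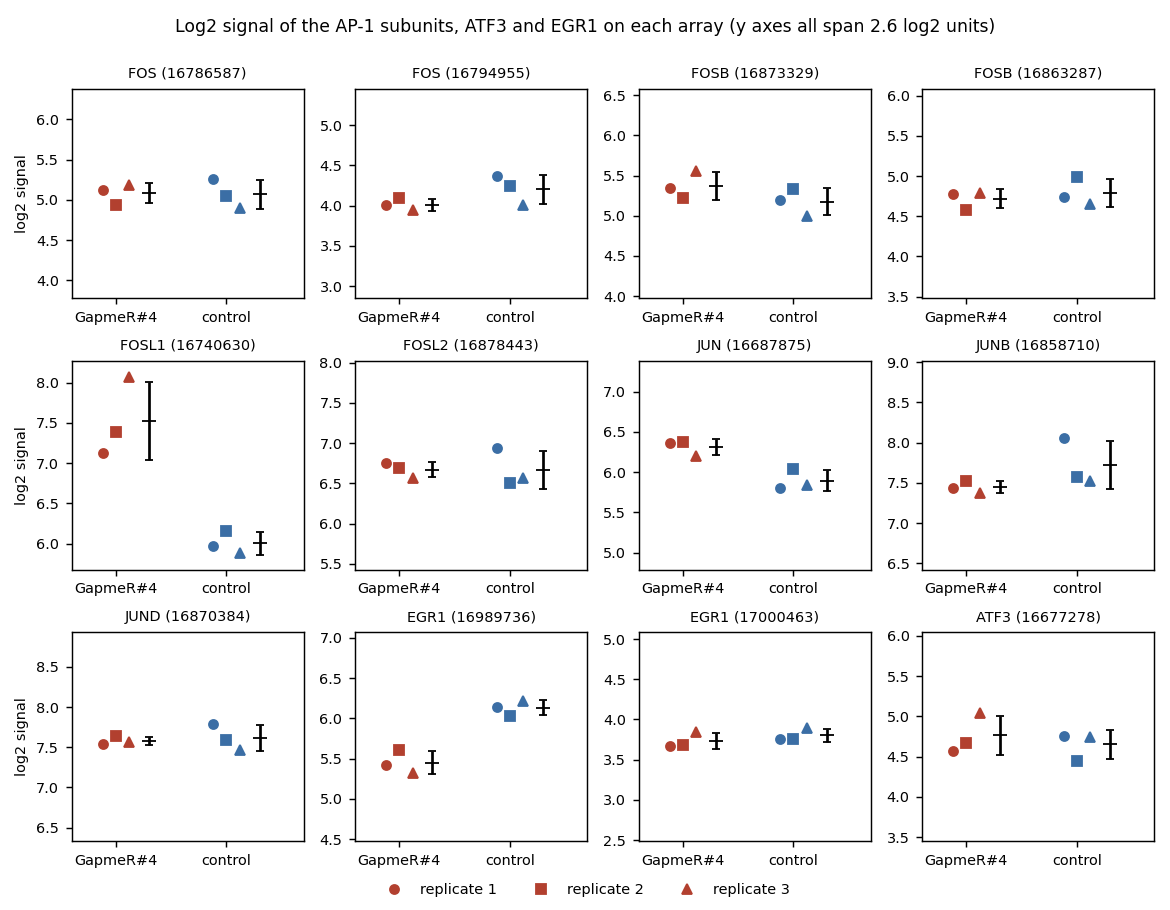
Log2 signal (y axis, the same length of scale in every panel) of the 12 transcript clusters of the members, each array being 1 point with its replicate number as shape, GapmeR#4 in red at the left and control GapmeR in blue at the right, and bars giving the mean ± SD (n = 3). FOSL1 on the GapmeR#4 arrays lies between 7.13 and 8.07, above all its control arrays, while EGR1 (16989736) on the GapmeR#4 arrays lies between 5.32 and 5.61, below all its control arrays.

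FOS, FOSB and EGR1 each have 2 transcript clusters under 1 name, and the annotation does not say how they differ. The second one of EGR1 (17000463) gave 3.68, 3.68 and 3.85 with GapmeR#4, against 3.75, 3.76 and 3.89 with control GapmeR, a log2 change of -0.07 (standard error 0.10). The second one of FOS (16794955) gave 4.01, 4.09 and 3.94 with GapmeR#4, against 4.36, 4.24 and 4.00 with control GapmeR, a log2 change of -0.19 (standard error 0.12). The groups overlapped in both. In the order of the platform's identifiers, the named neighbours of these and of the brighter FOSB transcript cluster come mostly from the minus strand (25 of 26 for EGR1, 24 of 27 for FOS and 25 of 26 for FOSB), whereas all 3 genes lie on the plus strand. The neighbours of their other transcript clusters come mostly from the plus strand (23 of 24 for EGR1, 26 of 28 for FOS and 20 of 21 for FOSB). Whether the transcript clusters with minus-strand neighbours read these genes was not tested.

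Counted by the brightest transcript cluster of each gene, FOSL1 was higher and EGR1 was lower by limma (adjusted p below 0.05), 2 of 9 members. JUN and JUNB did not pass (limma adjusted p = 0.118 and 0.448). Over the named genes 4.05% were called, 1.49% higher and 2.56% lower, and over all transcript clusters also 2.56%. The groups did not overlap for FOSL1, JUN, JUNB and EGR1, 4 of 9 members, and for 32.3% of all named genes. The members were chosen with this contrast known, so nothing is read from either count. With the 2 EGR1 transcript clusters averaged, EGR1 was no longer called.

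**Figure D2:**
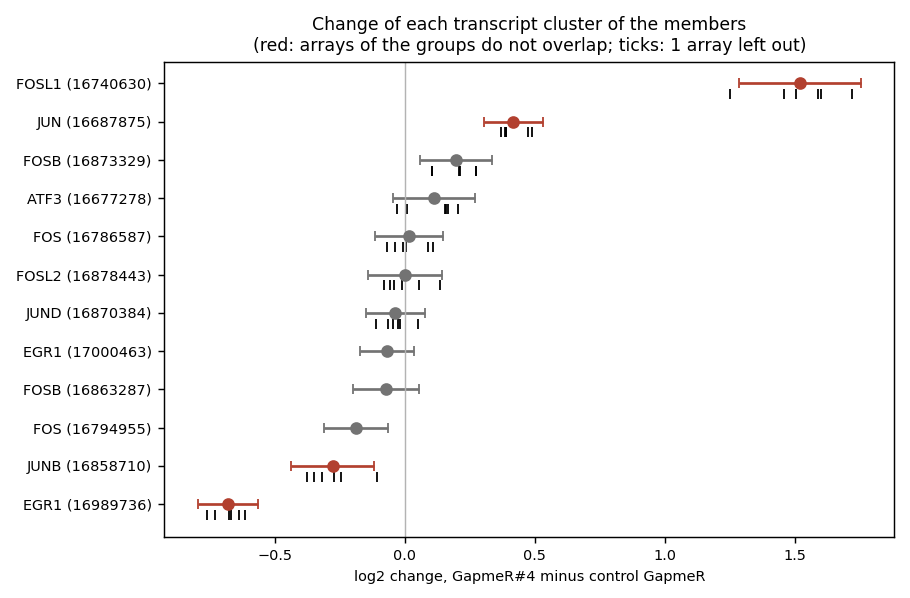
Log2 change, GapmeR#4 minus control GapmeR (x axis), of each transcript cluster of the members, with bars of 1 standard error from limma, red where arrays of the groups did not overlap, and ticks under the brightest transcript cluster of each gene for its change with 1 array left out. The ticks of FOSL1 run from 1.25 to 1.72 and those of EGR1 from -0.76 to -0.62, while those of FOS, FOSL2, JUND and ATF3 fall on both sides of 0.

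The genes around AP-1 and EGR1 were described with 6 lists written by function, on the brightest named transcript cluster of each gene and with the limma call adjusted over all transcript clusters. For some lists, counts at an unadjusted p under 0.05 are given too. The share of all named genes at that unadjusted threshold was not counted, so nothing is read from those counts. Through these lists 10 genes named by the platform passed an adjusted p of 0.05. With FOSL1 and EGR1 these are 12 genes, and 0 of the 12 passed with the methods' t-test after Benjamini-Hochberg adjustment or, in limma, with the replicate number as a block, although all 12 had an unadjusted p under 0.05 in both. In limma with any 1 array left out, 0 to 5 of the 12 passed, with 0 without control replicate 2, 1 without control replicate 1 or GapmeR#4 replicate 3, 2 without control replicate 3 or GapmeR#4 replicate 2, and 5 without GapmeR#4 replicate 1, and all 12 kept an unadjusted p under 0.05. The 12 were picked by limma on these same arrays, so their unadjusted p-values were nearly fixed in advance and lend no support.

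Among immediate early genes other than the members, the 3 that passed limma after adjustment were higher, while the list as a whole was split in direction. Of 24 measured genes out of 35 listed, 3 rose and 0 fell at the threshold, 12.5% against 4.05% of all named genes at the same adjusted threshold. At an unadjusted p under 0.05 from limma, 6 were higher and 0 lower, with no share of all named genes to set beside them. There were 13 positive and 11 negative log2 changes, against 7501 positive and 7383 negative over all named genes. The median log2 change was 0.06, against 0.0026 over all named genes. SGK1, a kinase induced by serum and glucocorticoids, gave 6.06, 6.20 and 6.37 with GapmeR#4, against 5.02, 5.11 and 5.36 with control GapmeR, which is 1.04 higher on the log2 scale (SE 0.13, limma adjusted p = 0.017). The pseudokinase gene TRIB1 gave 7.19, 7.32 and 7.41 with GapmeR#4, against 6.75, 6.64 and 6.41 with control GapmeR (0.71 higher, SE 0.13, limma adjusted p = 0.0392). KLF4, a zinc finger factor of epithelial differentiation, gave 5.95, 5.77 and 5.75 with GapmeR#4, against 5.32, 5.24 and 5.29 with control GapmeR (0.54 higher, SE 0.10, limma adjusted p = 0.0451). The arrays of the groups did not overlap for any of these 3 genes. The call of KLF4 was lost with each array centred on its median.

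KLF10, induced early by TGF-beta, gave 7.68, 7.74 and 7.71 with GapmeR#4, against 7.18, 7.26 and 7.31 with control GapmeR, and missed the threshold (adjusted p = 0.0547 from limma). MYC, the growth regulator, had a log2 change of 0.44 and missed it as well (adjusted p = 0.13). Of the relatives of EGR1, EGR2 had no named transcript cluster and was not analysed. EGR3 had a log2 change of 0.13 (standard error 0.15) and EGR4 one of 0.08 (standard error 0.09), neither passed (limma adjusted p = 0.755 and 0.729), and both were chosen after their values were seen. Of the 24 genes, 0 were lower and 6 were higher without overlap between the groups, 25% against 32.3% of all named genes, of which 2306 were higher and 2496 lower.

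**Figure D3:**
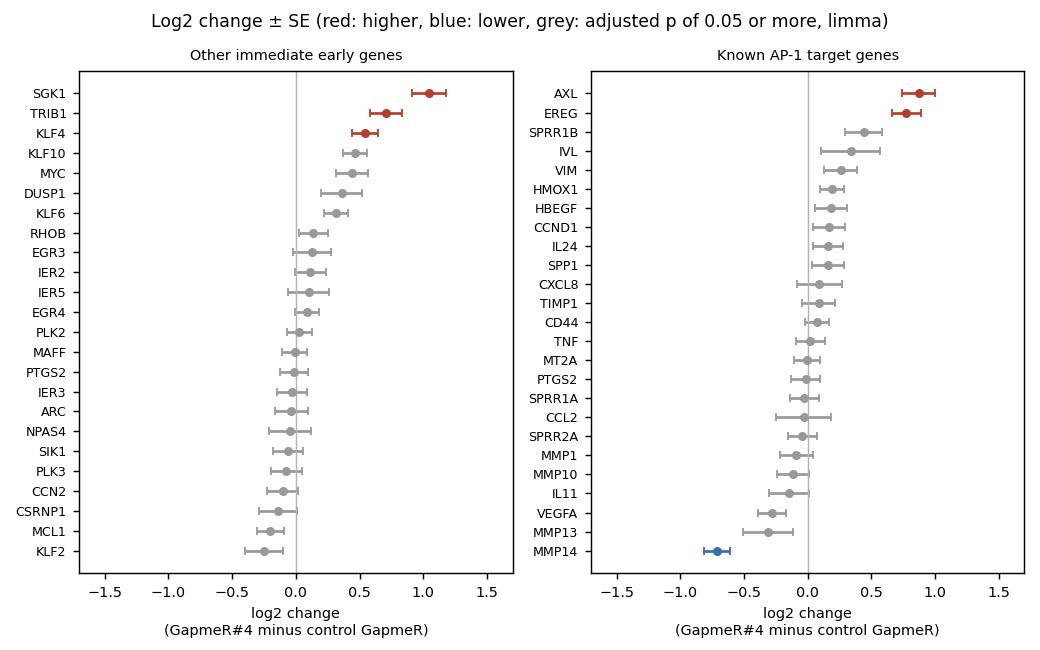
Log2 change, GapmeR#4 minus control GapmeR (x axis), of each measured gene in the lists of other immediate early genes (left) and known AP-1 targets (right), with bars of 1 standard error from limma, red for higher and blue for lower at an adjusted p under 0.05 and grey for the rest. SGK1, TRIB1, KLF4, AXL and EREG are in red and MMP14 is in blue, against a median of 0.0026 over all named genes.

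Known AP-1 target genes split in direction. Of 25 measured genes out of 37 listed, 2 rose and 1 fell (12% called, against 4.05% of all named genes), with a median log2 change of 0.08. There were 14 positive and 11 negative log2 changes. AXL, a receptor tyrosine kinase, gave 6.20, 6.001 and 6.44 with GapmeR#4, against 5.34, 5.36 and 5.33 with control GapmeR, 0.87 higher on the log2 scale (SE 0.13, limma adjusted p = 0.025). EREG, which encodes the EGFR ligand epiregulin, gave 7.26, 7.23 and 7.47 with GapmeR#4, against 6.43, 6.59 and 6.61 with control GapmeR, 0.77 higher (SE 0.11, limma adjusted p = 0.024). The groups lay well apart for both. MMP14, a membrane-bound matrix metalloproteinase, was the called gene that fell. It gave 5.17, 5.25 and 5.32 with GapmeR#4, against 6.04, 5.92 and 5.91 with control GapmeR, with a log2 difference of -0.71 (SE 0.10, limma adjusted p = 0.0218).

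The 4 epithelial cornification genes of the list did not pass, with log2 changes of 0.44 for SPRR1B (adjusted p = 0.182 from limma), 0.34 for IVL (adjusted p = 0.537), -0.03 for SPRR1A and -0.04 for SPRR2A, the last pair chosen after their values were seen. For MMP1, MMP10, MMP13, PTGS2 and SPRR1B, 5 of the 25, both group means were below the lower quartile of every array, near the low end of the signal. AREG, another EGFR ligand gene beside EREG, is named only by a supplementary list of changed genes and was kept out of the counts. It gave 7.13, 7.06 and 7.17 with GapmeR#4, against 6.51, 6.55 and 6.63 with control GapmeR (log2 change 0.56, standard error 0.10).

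Of the genes tied to EGR1 by family, feedback or known control, 1 passed. Of 12 measured genes out of 18 listed, 0 rose and 1 fell (8.33% called, against 4.05% of all named genes). At an unadjusted p under 0.05 from limma, 1 was higher and 2 were lower, and the median log2 change was 0.06. The gene that fell was MMP14, which stands in the AP-1 list too. FGF2, a fibroblast growth factor, gave 8.40, 8.27 and 8.66 with GapmeR#4, against 7.55, 7.63 and 7.98 with control GapmeR, and its log2 change of 0.73 (standard error 0.16) missed the threshold (adjusted p = 0.0648). FN1, fibronectin, had a log2 change of -0.44 with overlapping groups (adjusted p = 0.338).

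Among other bZIP factors, the family from which AP-1 draws its partners, those that passed were lower. Of 26 measured bZIP genes out of 42 listed, 0 rose and 2 fell (7.69% called, against 4.05% of all named genes). At an unadjusted p under 0.05 from limma, 2 were higher and 7 were lower. There were 7 positive and 19 negative log2 changes with a median of -0.08, against 7501 positive and 7383 negative over all named genes. ATF6B, an endoplasmic reticulum stress factor, gave 8.24, 8.34 and 8.33 with GapmeR#4, against 9.35, 9.23 and 9.12 with control GapmeR, with a log2 difference of -0.93 (SE 0.11, limma adjusted p = 0.0122). CREB3L2, another membrane-bound bZIP factor, gave 5.86, 5.85 and 5.83 with GapmeR#4, against 6.37, 6.35 and 6.46 with control GapmeR (log2 difference -0.55, SE 0.09, limma adjusted p = 0.0342). The groups lay apart for both. CREB1 and XBP1 had log2 changes of -0.55 and -0.52 without passing (adjusted p = 0.0822 and 0.0802).

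Of the kinases and SRF factors upstream, 19 of 34 listed were measured, with 5 positive and 14 negative log2 changes and a median of -0.14. Over all named genes, 7501 changes were positive and 7383 negative. The 1 gene that passed was MRTFB, an actin-regulated coactivator of SRF, at 8.11, 7.92 and 7.68 with GapmeR#4, against 8.75, 8.88 and 9.01 with control GapmeR (log2 difference -0.98, SE 0.14, limma adjusted p = 0.0231). MRTFB fell in a list where 5.26% were called, close to the 4.05% of all named genes, and 0 genes rose (0 higher and 4 lower at an unadjusted p under 0.05 from limma). MAP2K5 and MAPK13, kinases of the ERK5 and p38 pathways, had log2 changes of -0.43 and -0.42 (adjusted p = 0.214 and 0.13). SRF itself had one of 0.01 and was chosen after its value was seen.

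JUN protein is removed by ubiquitin ligases, among them a complex of DET1 and COP1, and protein was not measured here. DET1 gave 5.49, 5.12 and 4.72 with GapmeR#4, against 6.39, 6.26 and 6.64 with control GapmeR, with a log2 difference of -1.32 (SE 0.21, limma adjusted p = 0.0274). TRIB1, a pseudokinase gene whose product binds COP1, is not a ligase and is 1 of the 3 early genes that rose. In the list titled ubiquitin ligases of JUN, 1 of 5 measured genes out of 8 listed rose and 1 fell (40% called, against 4.05% of all named genes). TRIB2 and ITCH did not pass, with log2 changes of -0.36 and 0.16. COP1 is named only by the supplementary list of changed genes and is not counted. It gave 6.41, 6.07 and 6.10 with GapmeR#4, against 7.83, 7.89 and 7.99 with control GapmeR, with a log2 difference of -1.71 (SE 0.13), and its groups lay far apart.

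**Figure D4:**
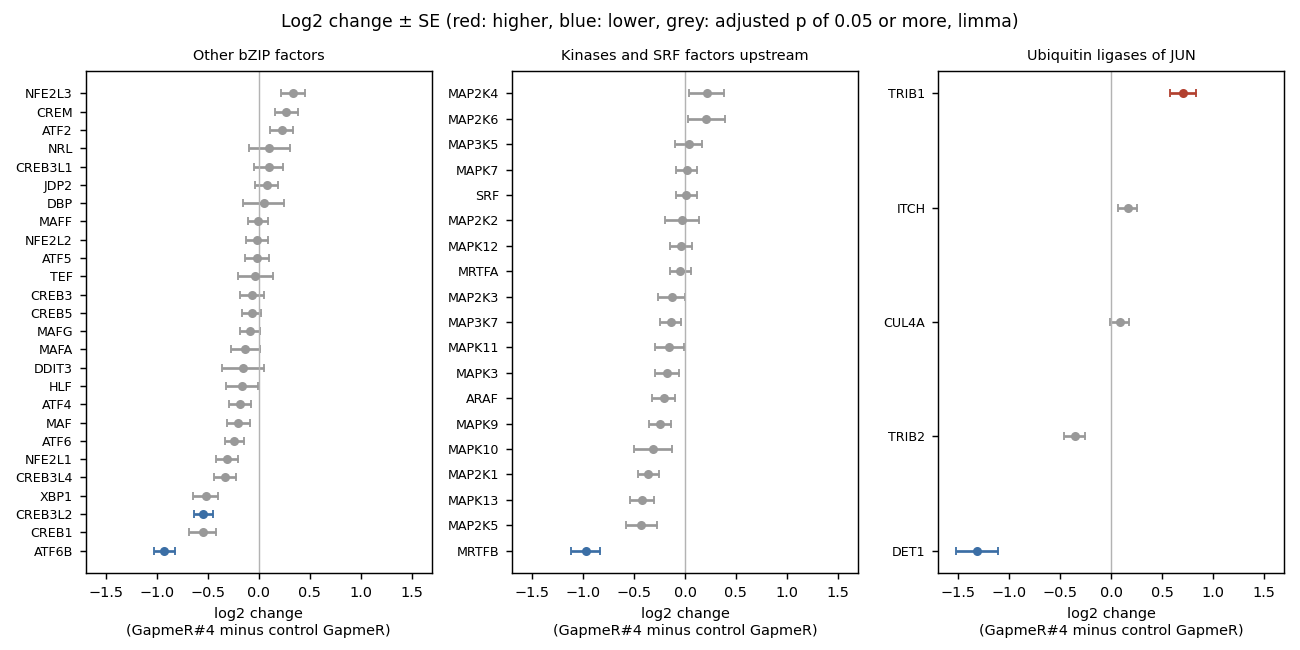
Log2 change, GapmeR#4 minus control GapmeR (x axis), of each measured gene in the lists of other bZIP factors, upstream kinases and SRF factors, and ubiquitin ligases of JUN, with bars of 1 standard error from limma, red for higher and blue for lower at an adjusted p under 0.05 and grey for the rest. ATF6B, CREB3L2, MRTFB and DET1 are in blue, and TRIB1, a pseudokinase gene and not a ligase, is in red. Of the 26 bZIP genes 19 lie below 0, as do 7383 of the 14884 named genes.

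The genes whose 6 values ran most like those of FOSL1 and EGR1 were sought among 5999 named genes with an SD of at least 0.2 over the 6 arrays. For FOSL1 they were GDF15, a stress-induced cytokine (Pearson r = 0.9952), ZNF600 (0.9948), PPTC7 (0.9937), SUSD2 (0.9901) and SALL4 (0.9888). GDF15 gave 7.40, 7.60 and 7.88 with GapmeR#4, against 6.66, 6.86 and 6.59 with control GapmeR, in the same order of arrays as FOSL1. For EGR1 they were HYKK (0.9973), WWOX (0.995), SLFN11 (0.9928), NCKAP5 (0.9922) and BTC (0.9922), the last encoding the EGFR ligand betacellulin. BTC gave 4.90, 5.21 and 4.86 with GapmeR#4, against 6.25, 6.15 and 6.27 with control GapmeR. The arrays fall into 2 groups, so any gene with a clear difference between GapmeR#4 and control GapmeR scores high, and 312 of the 5999 genes were above 0.9 for FOSL1 and 634 for EGR1.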

How the data were processed

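Affymetrix Expression Console was the authors' tool, per the labels, and the deposited values are log2 signals of 53617 transcript clusters. For its version and the normalization, the sources used here give nothing. The signals were used as deposited. In the platform annotation 16098 transcript clusters have 1 gene symbol, 0 have several and 37519 have none, and 330 of these are named only by a supplementary list of changed genes, which entered no count. For each gene the brightest transcript cluster was used. The 6 arrays, 3 per group, were compared with limma 3.58.1 in R 4.3.3 (2 groups, 2-sided), with Benjamini-Hochberg adjustment over all transcript clusters and a threshold of 0.05. The scripts were tested on simulated data. The number of arrays limits the precision.

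The members and lists were chosen with earlier results of these data known. Named were NRAD1, all members, up to 6 called genes per list by smallest p plus the 2 largest other changes, and the 5 genes most correlated with FOSL1 and with EGR1. Alternatives were the brighter 50% of transcript clusters, an intensity trend with a robust prior, the methods' t-test, quantile normalization, median centring, averaging the transcript clusters of a gene, a replicate block and leaving out each array. Upstream sequence is from RefSeq (GRCh38.p14). All motifs were searched on both strands.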

Additional observations from a re-analysis of the deposited data

How the results depend on the processing

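The changes of the members and NRAD1 kept their sign under quantile normalization and median centring. With 1 array left out they ran from 1.25 to 1.72 for FOSL1 and from -0.76 to -0.62 for EGR1, while those of FOS (-0.07 to 0.11), FOSL2 (-0.08 to 0.14), JUND (-0.11 to 0.05) and ATF3 (-0.03 to 0.21) took either sign. Of all transcript clusters, 1374 were called, against 2748 in the brighter 50% alone, 2449 with an intensity trend and robust prior, 12 with the methods' t-test after Benjamini-Hochberg adjustment, 90 with the replicate block and 67 to 502 with 1 array left out. The authors called array genes otherwise, by an ANOVA p-value and a fold-change cutoff, so the 12 is not a count by their array method. The brighter 50% and the intensity trend each gave 4 bZIP factors in place of 2 and 2 EGR1-related genes in place of 1. With the methods' t-test and with the replicate block, 0 genes were called among the members and in each of the 6 lists, while at an unadjusted p under 0.05 each setting gave 3 members, the t-test 4 to 9 genes per list and the block 3 to 6. Averaging the transcript clusters of a gene left 1 member called in place of 2. With any 1 array left out, limma called 0 to 1 genes among the members, the other bZIP factors, the other immediate early genes, the known AP-1 targets, the upstream kinases and SRF factors and the ubiquitin ligases of JUN, and 0 to 0 EGR1-related genes, against 3 members and 3 to 7 genes per list at an unadjusted p under 0.05. The share of all named genes at an unadjusted p under 0.05 was not counted in any setting. The labels do not say whether replicate numbers pair the samples. Over all transcript clusters, deviations of same-numbered arrays from their group means correlated at -0.065, -0.005 and -0.018. These values show no shared deviation over the arrays as a whole and cannot exclude one in part of the genes. The replicate block is therefore given here only as a setting. Dim genes limit what could be seen, and 3 arrays per group limit every call. The causes of these differences were not tested.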
